A study of Homo sapiens with 9 samples.

Results

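The 78 genes described here encode heat shock proteins, their J-domain partners (DNAJA, DNAJB and DNAJC genes), the chaperonins, the BAG co-chaperones and the heat shock factor HSF1. They were taken by symbol from the 16366 genes of the authors' table. HSPA5, DNAJB9, DNAJB11 and DNAJC3, chaperone genes of the endoplasmic reticulum that respond to unfolded protein there, were left out. DNAJC10, which also acts in the endoplasmic reticulum, was kept. The expression profiles come from Cal-27, an established line of tongue squamous carcinoma cells of wild-type genotype that was grown in high-glucose DMEM with fetal bovine serum. Cultures were given exosomes of cancer-associated fibroblasts (CAF exosomes) for 48 h, or exosomes labelled hOMF for the same time, or were a normal control, with 3 libraries in each of 3 groups. Exosomes are small vesicles shed by cells. The labels spell out neither hOMF, which they also write hMOF, nor the exosome dose, and they do not say what the control cultures received in place of exosomes. One cell line stands for the tumour, and separate cultures are not stated for the libraries of a group, so the spread behind each p-value is that of these samples alone and could be technical.

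Chaperones bind proteins that are not yet folded, or have lost their fold, and keep them from clumping. HSP70 proteins work in a cycle of ATP binding and hydrolysis: J-domain proteins bring the client and trigger hydrolysis, while HSP110 proteins and BAG proteins promote the exchange of nucleotide that lets the client go. Clients such as kinases and steroid receptors pass on to HSP90, actin and tubulin are folded inside the cytosolic chaperonin CCT, and proteins imported into mitochondria are folded by HSP60 and HSP10. HSF1 is the transcription factor that raises many of these genes when proteins unfold, by binding heat shock elements, which are inverted repeats of the unit nGAAn in their promoters, and chaperones hold it inactive in unstressed cells. Many carcinoma cells, oral squamous carcinoma among them, carry high levels of chaperones.

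The promoter stretches of 7 members are shown because they hold GAANNTTC, 2 inverted units of the heat shock element by which HSF1 recognises its targets. They were also chosen because these genes then behaved in different ways across the groups. In capitals are the units: the inverted pair GAANNTTC, the same on both strands, or, for HSPA8 and DNAJB6, the pair with a further unit at one end. The sequences are from RefSeq on GRCh38.p14, each read 5′ to 3′ on the strand of its gene, and lie upstream of the annotated start. The HSPA8 stretch is chr11:123062164-123062206 on the minus strand, 70 to 28 bases before the start, and the DNAJA1 stretch is chr9:33025060-33025097. HSPA1A is at chr6:31815422-31815459 and its near copy HSPA1B at chr6:31827618-31827655. The other stretches are HSPB1 at chr7:76302476-76302513, HSPB8 at chr12:119178828-119178865 and DNAJB6 at chr7:157336858-157336900, all 6 of these genes on the plus strand.
HSPA8: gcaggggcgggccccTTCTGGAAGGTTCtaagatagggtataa
HSPA1A: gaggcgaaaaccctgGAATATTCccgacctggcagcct
HSPA1B: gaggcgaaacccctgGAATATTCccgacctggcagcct
DNAJA1: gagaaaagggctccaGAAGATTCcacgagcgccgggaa
HSPB1: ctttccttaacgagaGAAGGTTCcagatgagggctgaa
HSPB8: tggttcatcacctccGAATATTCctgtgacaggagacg
DNAJB6: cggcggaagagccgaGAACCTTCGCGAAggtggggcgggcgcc

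A promoter window was found for 69 of the 78 members and for 13006 genes of the table. GAANNTTC lay within the 250 bases before the start in 12 of the 69 members (17.4%), against 568 of the 13006 genes (4.37%). The longer element of 3 units lay there in 3 members (4.35%) and in 42 genes of the table (0.323%). A match is a description of the letters in this window, not evidence of binding.

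Library depth lay between 11185700 and 12779100 expected counts, and 12470 genes had enough counts to be tested, 72 of the members among them. The 3 control libraries lay apart from the 6 exosome libraries on the first principal component of all tested genes, which held 39.7% of the variance, and replicate 3 of the control lay farthest from the rest. That library was also the one with PTPRC, a leukocyte gene, at 7.5 CPM, against at most 0.0909 CPM in the other libraries. CPM values here are counts scaled by library size and TMM factors. Over the 9 libraries the lowest single value among the squamous markers KRT5, KRT17, TP63, EPCAM and CDH1 was 225 CPM, for TP63, whereas KRT14 went down to 6.70 CPM and KRT6A to 5.73 CPM. The 7 listed squamous markers summed to 4209 ± 609 CPM (SD, n = 3) in control, 5524 ± 38.2 with CAF exosomes and 4901 ± 353 with hOMF exosomes, and 4 of the 7 rose with CAF exosomes and 2 with hOMF exosomes. The 9 listed fibroblast markers summed to 38.1 to 44.0 CPM in control, 48.6 to 51.4 with CAF exosomes and 46.2 to 57.3 with hOMF exosomes, most of it COL1A1, while COL3A1, POSTN, DCN, FAP and THY1 were at or near 0 throughout. Of the 4 fibroblast markers that could be tested, LUM rose with CAF exosomes (1.45 to 3.03 CPM, adjusted p = 0.00805) and with hOMF exosomes (to 2.78 CPM, adjusted p = 0.013), and COL1A1 and PDGFRB had every exosome library above control without being called. The 3 listed endothelial markers summed to 21.7 to 31.3 CPM in control, 17.4 to 19.9 with CAF exosomes and 17.6 to 20.9 with hOMF exosomes. Of these, CDH5 fell by 0.69 on the log2 scale with CAF exosomes (adjusted p = 0.00274) and by 0.66 with hOMF exosomes (adjusted p = 0.00256), while PECAM1, at 2.71 CPM in control replicate 3 and at most 1.21 CPM elsewhere, and VWF were not called. The part of these marker lists in the chaperone results was not tested. Because whole cultures were sequenced, less RNA in every cell and fewer cells with a high level cannot be told apart.

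In Cal-27 cells given either kind of exosome, HSPA8, HSPA1A, HSPH1, HSP90AA1 and DNAJA1 were lower than in control cells. They fell by 0.38 to 0.84 on the log2 scale, and kept their call in all alternatives tried. Several subunits of the chaperonin CCT fell by smaller amounts, whereas HSF1, HSPB1, HSP90AB1, HSPA1B, HSPA9 and most of the DNAJC genes were not called. With CAF exosomes 15 of the 72 tested members were lower than in control (20.8%) and 0 were higher, and 26 members had an unadjusted p under 0.05. Of all 12470 genes tested, 8.64% were lower and 9.51% higher, and 4094 had an unadjusted p under 0.05. With hOMF exosomes 17 members were lower (23.6%) and 2 higher (2.78%), against 11.4% and 11.8% of all genes. Both comparisons use the same 3 control libraries. The median log2 fold change of the tested members was -0.08 in each, against -0.01 over all genes with CAF exosomes and 0.00 with hOMF exosomes. A gene counts as called, and as having fallen or risen, where edgeR's quasi-likelihood test gave an adjusted p (Benjamini-Hochberg, over all tested genes) under 0.05. Changes are given on the log2 scale with the standard error (SE). All 34 calls had every library of one group above or below every library of the other. Leaving out single libraries lowered the number of members called with CAF exosomes from 15 to 8 without CAF exosome replicate 1, 5 without CAF exosome replicate 3, 9 without control replicate 2 and 7 without control replicate 3. The number called with hOMF exosomes was 11 without hOMF exosome replicate 2, in place of 19. Summed over all 78 members, the level was 9942 ± 251 CPM in control, 8870 ± 320 with CAF exosomes and 8808 ± 288 with hOMF exosomes (SD, n = 3).

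**Figure D1:**
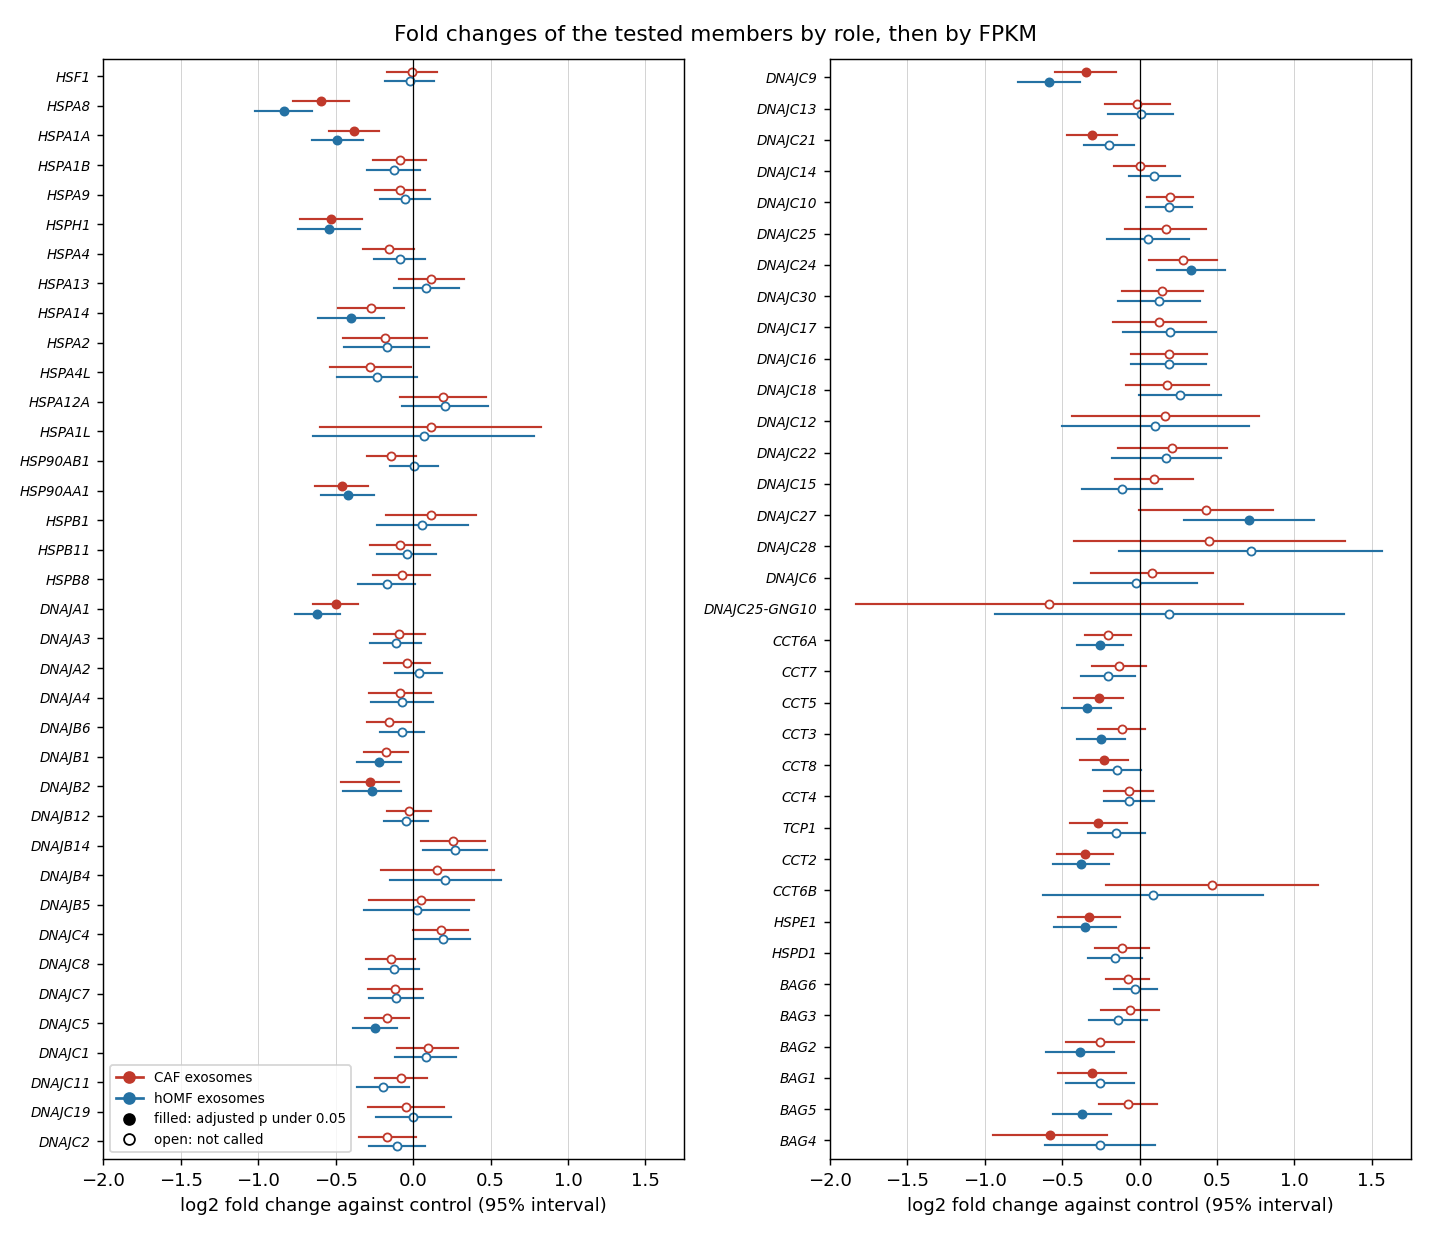
Log2 fold change against control of the 72 tested members with its 95% interval, for CAF exosomes (red) and hOMF exosomes (blue), ordered by role and then by level, with filled points for an adjusted p under 0.05. Filled points lie to the left of 0 except for DNAJC24 and DNAJC27 with hOMF exosomes, and most J-domain genes of the DNAJC class lie close to 0.

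HSF1 itself did not differ detectably between the groups. Its RNA stood at 128, 132 and 129 CPM in the control libraries, 119, 136 and 131 with CAF exosomes and 139, 124 and 119.5 with hOMF exosomes, so that the groups overlapped. The log2 changes against control were -0.01 with CAF exosomes (95% interval -0.17 to 0.15) and -0.02 with hOMF exosomes (-0.18 to 0.14). RNA levels do not show whether the factor is active.

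HSPA8, the constitutive cytosolic HSP70, was the tested member with the lowest fold change in each comparison with control. Control libraries held 636, 693 and 745 CPM, CAF exosome libraries 444, 484 and 447, and hOMF exosome libraries 347, 382 and 433. No exosome library reached the lowest control library. HSPA8 fell by 0.59 on the log2 scale with CAF exosomes (SE 0.09, adjusted p = 0.000338) and by 0.84 with hOMF exosomes (SE 0.09, adjusted p = 1.74e-05), which is 1.51 and 1.79 times lower. Its promoter holds the 3-unit element shown above and a second 3-unit element that begins 230 bases before the start.

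HSPA1A and HSPA1B, neighbouring genes for the same stress-inducible HSP70, cannot be fully separated by their reads. None of their deposited counts was whole, which is how RSEM marks reads divided between genes. HSPA1A stood at 472, 508 and 498 CPM in control, 340.3, 413 and 380.4 with CAF exosomes and 364, 354 and 334 with hOMF exosomes, below control in all 6 exosome libraries. It fell by 0.38 with CAF exosomes (SE 0.08, adjusted p = 0.00359) and by 0.49 with hOMF exosomes (SE 0.08, adjusted p = 0.000397). HSPA1B, named because of this sharing, stood at 243, 257 and 284 CPM in control, 221, 266 and 251 with CAF exosomes and 242, 247 and 231 with hOMF exosomes. Its changes of -0.09 (95% interval -0.26 to 0.08) and -0.12 (-0.30 to 0.05) were not called. Summed over the pair, an alternative added after the data were seen, the level was 754 ± 34.7 CPM in control, 624 ± 59.6 with CAF exosomes and 591 ± 22.8 with hOMF exosomes (SD, n = 3). The sum fell by 0.27 (SE 0.08, adjusted p = 0.0228) and by 0.35 (SE 0.08, adjusted p = 0.00436).

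HSPH1 encodes an HSP110 protein, a nucleotide exchange factor of HSP70. The control libraries held 88.3, 85.6 and 99.8 CPM, the CAF exosome libraries 65.8, 60.3 and 63.8, and the hOMF exosome libraries 56.9, 57.7 and 72.9. HSPH1 fell by 0.53 with CAF exosomes (SE 0.09, adjusted p = 0.00164) and by 0.54 with hOMF exosomes (SE 0.09, adjusted p = 0.000869), in each case without overlap with control. The other HSP110 genes were not called: HSPA4 had log2 changes of -0.16 and -0.09 and HSPA4L of -0.28 and -0.23. Only 11.1% of the HSPA4L counts were whole, so its reads are shared with another gene. Of the 12 tested genes of the HSP70 and HSP110 families, 3 fell with CAF exosomes and 4 with hOMF exosomes, the additional one being HSPA14. These shares were 25% and 33.3%, against 8.64% and 11.4% of all genes tested. HSPA14, a ribosome-associated HSP70, stood at 22.2, 25.6 and 24.5 CPM in control, 20.3, 21.3 and 18.4 with CAF exosomes and 16.3, 18.6 and 19.7 with hOMF exosomes. It fell by 0.40 with hOMF exosomes (SE 0.10, adjusted p = 0.0101), and its change of -0.27 with CAF exosomes had an adjusted p = 0.073. HSPA9, the mitochondrial HSP70, had changes of -0.08 and -0.05 and was not called. Its level on the FPKM scale, which is per transcript length and allows genes to be compared, was 56.6 on average, against 256 for HSPA8 and 23.0 for HSPH1. HSPA2, HSPA12A, HSPA13 and HSPA1L were not called either, and HSPA6, a strictly stress-induced HSP70, had 50 counts over the 9 libraries and was not tested, as was HSPA12B.

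**Figure D2:**
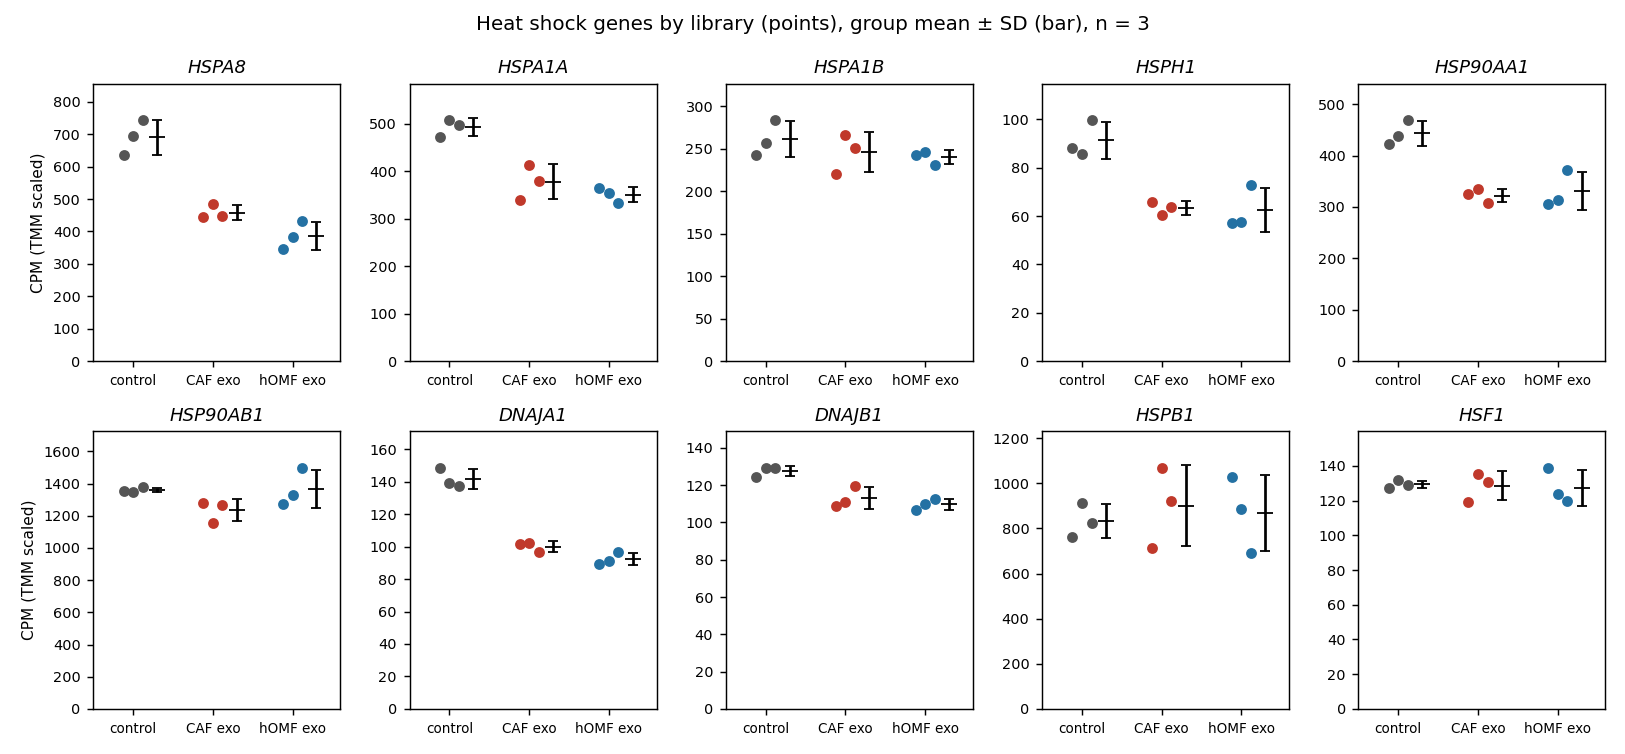
CPM of 10 members in each library, with the group mean ± SD as a bar (n = 3 libraries per group, axes from 0). HSPA8, HSPA1A, HSPH1, HSP90AA1 and DNAJA1 lie below control in all 6 exosome libraries, while HSPB1 and HSF1 overlap between the groups.

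Of the 2 cytosolic HSP90 genes, 1 was called. HSP90AA1, the inducible form, stood at 423, 437 and 470 CPM in control, 325, 334 and 308 with CAF exosomes and 307, 313 and 373 with hOMF exosomes. It fell by 0.46 with CAF exosomes (SE 0.08, adjusted p = 0.00139) and by 0.42 with hOMF exosomes (SE 0.08, adjusted p = 0.00176), and all exosome libraries were below all control libraries. HSP90AB1, the constitutive form and the member with the second highest FPKM (579), stood at 1356, 1350.2 and 1377 CPM in control, 1282, 1158 and 1265 with CAF exosomes and 1276, 1327 and 1499.9 with hOMF exosomes. Its changes of -0.14 (95% interval -0.30 to 0.02) and 0.01 (-0.15 to 0.16) were not called. The difference between the genes was not tested. Exons of HSP90AA1 overlap exons of WDR20 on the opposite strand. Whether counting used the strand is not stated in the labels or processing notes, so how reads of the shared bases were assigned is not known. All deposited counts of HSP90AA1 were whole, without the mark of divided reads. The same holds for BAG2 with RAB23, BAG4 with LSM1, BAG5 with KLC1 and DNAJB1 with TECR. It also holds for DNAJC9 with FAM149B1, HSPA14 with CDNF and TCP1 with ACAT2. HSPE1 overlaps HSPD1 on the opposite strand as well, and 77.8% of its counts were whole.

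Small heat shock proteins bind unfolding clients without using ATP. HSPB1 (HSP27) had the highest FPKM of all members, 1718 on average, and varied widely within every group: 762, 911 and 823 CPM in control, 713, 1069.6 and 920.3 with CAF exosomes and 1027, 885 and 690.3 with hOMF exosomes. The ranges overlapped, and the changes of 0.12 (95% interval -0.18 to 0.41) and 0.06 (-0.23 to 0.35) were not called, with intervals wider than for HSPA8. HSPB8, which works with BAG3, had changes of -0.07 and -0.17, and HSPB11, which despite its name is a part of the intraflagellar transport machinery, had -0.09 and -0.04. None of the 3 tested genes of this class was called, and HSPB6 (36 counts over all libraries) and HSPB9 (1 count) were not tested. The HSPB1 and HSPB8 promoters hold GAANNTTC, as shown above.

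Among J-domain genes of the DNAJA class, which resemble bacterial DnaJ most closely, DNAJA1 alone of 4 was called. Its libraries read 149, 139 and 137 CPM in control, 101, 102 and 96.5 with CAF exosomes and 89.2, 90.9 and 96.5 with hOMF exosomes, a clear gap between control and both exosome groups. DNAJA1 fell by 0.50 with CAF exosomes (SE 0.07, adjusted p = 0.000202) and by 0.62 with hOMF exosomes (SE 0.07, adjusted p = 2.72e-05). DNAJA2, a close relative, stayed within 49.9 to 56.3 CPM in all 9 libraries, with changes of -0.04 (95% interval -0.19 to 0.11) and 0.04 (-0.11 to 0.19). DNAJA3, which acts in mitochondria, and DNAJA4 had changes between -0.11 and -0.07.

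Of the 7 tested DNAJB genes, 1 fell with CAF exosomes (14.3%) and 2 with hOMF exosomes (28.6%), against 8.64% and 11.4% of all genes tested. DNAJB1 (HSP40), the main stress-inducible partner of HSP70, read 125, 129 and 129 CPM in control, 109, 111 and 120 with CAF exosomes and 107, 110 and 113 with hOMF exosomes. Its fall with hOMF exosomes was 0.22 (SE 0.07, adjusted p = 0.0261), and the change with CAF exosomes was -0.17 (adjusted p = 0.0786). The first of these calls was lost without either of hOMF exosome replicates 1 and 2 or either of control replicates 2 and 3, and when libraries were scaled without TMM factors. It was also lost with limma on FPKM. DNAJB2, which passes HSP70 clients to the proteasome, read 117, 113 and 97.0 CPM in control, 89.6, 83.8 and 95.6 with CAF exosomes and 96.8, 94.2 and 81.2 with hOMF exosomes. It fell by 0.28 (adjusted p = 0.0384) and 0.26 (adjusted p = 0.0409), and its calls rested on few libraries. The first was lost on leaving out any CAF exosome library, replicate 2 of hOMF exosomes, or replicate 1 or 2 of control, and without a filter on low counts. The second was lost on leaving out replicate 3 of CAF exosomes, replicate 2 or 3 of hOMF exosomes, or replicate 1 or 2 of control. It was also lost without TMM factors, without a filter on low counts and with limma on FPKM. The highest DNAJB gene by FPKM, DNAJB6 (90.5), had changes of -0.15 (adjusted p = 0.122) and -0.07 and was not called, although its promoter holds a 3-unit element. DNAJB4, DNAJB5, DNAJB12 and DNAJB14 were not called, and DNAJB13 had 2 counts and was not tested.

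The 26 tested DNAJC genes, the most varied class of J-domain proteins, gave 2 lower and 0 higher calls with CAF exosomes and 2 lower and 2 higher calls with hOMF exosomes. Their median log2 change was 0.09 in each comparison, above the median of all genes, and 16 of the 26 had a positive change with CAF exosomes and 17 with hOMF exosomes. Among all 12470 tested genes, 6141 and 6299 had a positive change. Of the DNAJC genes 7.69% were lower in each comparison, against 8.64% of all genes with CAF exosomes and 11.4% with hOMF exosomes. With hOMF exosomes 7.69% were higher, against 11.8% of all genes, and with CAF exosomes 0, against 9.51%. DNAJC9, a chaperone of histones H3 and H4, read 30.8, 32.2 and 37.9 CPM in control, 26.4, 26.7 and 26.2 with CAF exosomes and 22.3, 21.1 and 23.9 with hOMF exosomes. DNAJC9 fell by 0.35 (SE 0.09, adjusted p = 0.0166) with CAF exosomes, a call lost on omission of replicate 3 of CAF exosomes or of control, and by 0.58 (SE 0.09, adjusted p = 0.000451) with hOMF exosomes. DNAJC21, which acts in the maturation of the large ribosomal subunit, read 59.5, 58.7 and 61.5 CPM in control and 44.8, 53.1 and 47.4 with CAF exosomes, a fall of 0.31 (SE 0.08, adjusted p = 0.0127) that was lost without CAF exosome replicate 1 or 3. With hOMF exosomes its 3 libraries held 52.3, 53.4 and 51.2 CPM, a change of -0.20 (adjusted p = 0.0741). None of its counts was whole, so its reads are shared with another gene.

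DNAJC5, the cysteine string protein of secretory vesicles, fell by 0.25 with hOMF exosomes (SE 0.07, adjusted p = 0.0145), from 173, 166 and 168 CPM in control to 138, 136 and 152, and had a change of -0.17 (adjusted p = 0.0912) with CAF exosomes. The call was lost without hOMF exosome replicate 1 or 2, and with limma on FPKM. DNAJC24, which acts in the synthesis of diphthamide on elongation factor EEF2, read 14.5, 14.5 and 13.5 CPM in control, 18.3, 16.9 and 16.4 with CAF exosomes and 19.7, 16.4 and 17.4 with hOMF exosomes. It rose by 0.33 with hOMF exosomes (SE 0.10, adjusted p = 0.0292) and had a change of 0.28 with CAF exosomes (adjusted p = 0.069). DNAJC27, a small GTPase fused to a J domain, rose by 0.71 with hOMF exosomes (SE 0.20, adjusted p = 0.0182), from 5.64, 5.42 and 3.19 CPM to 7.29, 8.31 and 7.49. With CAF exosomes it read 5.80, 7.66 and 5.59 CPM (0.43, adjusted p = 0.155). Control replicate 3 had the lowest DNAJC27 value, and the DNAJC27 and DNAJC24 calls were both lost without it. DNAJC24 also lost its call without hOMF exosome replicate 1 or control replicate 2 and with DESeq2, and DNAJC27 without hOMF exosome replicate 2 and with limma on FPKM. DNAJC4, the DNAJC gene with the highest FPKM (63.0), had changes of 0.18 and 0.19 and was not called. DNAJC10, an oxidoreductase of the endoplasmic reticulum, was above control in all 6 exosome libraries (158 to 174 CPM in control, 179 to 203 with exosomes) with changes of 0.20 (adjusted p = 0.0655) and 0.19 (adjusted p = 0.0633). Only 11.1% of the DNAJC10 counts were whole, so reads of this gene are shared as well. The other 19 tested DNAJC genes were not called in either comparison, and DNAJC5B, with 1 count, was not tested.

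The cytosolic chaperonin CCT, a cylinder of stacked rings that folds actin and tubulin, had 4 lower calls among 9 tested genes in each comparison, and 8 of the 9 had a negative change in each. Of all 12470 genes tested, 8.64% were lower with CAF exosomes and 11.4% with hOMF exosomes, and 6329 and 6171 had a negative change. CCT2 read 121, 115 and 134 CPM in control, 98.9, 99.6 and 91.8 with CAF exosomes and 85.4, 92.9 and 106 with hOMF exosomes. It fell by 0.35 (SE 0.09, adjusted p = 0.0109) and by 0.38 (SE 0.09, adjusted p = 0.00538). CCT5 read 479, 497 and 512 CPM in control, 396, 427 and 415 with CAF exosomes and 369.7, 372 and 432 with hOMF exosomes. It fell by 0.27 (SE 0.07, adjusted p = 0.0218) and by 0.34 (SE 0.07, adjusted p = 0.00415). Both genes were below control in all 6 exosome libraries.

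TCP1, the CCT subunit that gave the complex its name, and CCT8 fell with CAF exosomes by 0.27 (adjusted p = 0.0453) and 0.23 (adjusted p = 0.0413), and with hOMF exosomes had changes of -0.15 and -0.15 that were not called. CCT3 and CCT6A fell with hOMF exosomes by 0.25 (adjusted p = 0.0209) and 0.26 (adjusted p = 0.0148), and with CAF exosomes had changes of -0.12 (adjusted p = 0.278) and -0.21 (adjusted p = 0.0508). CCT6A, the subunit with the highest FPKM (183), read 469, 459 and 479.7 CPM in control, 398, 408 and 413 with CAF exosomes and 369, 381 and 427 with hOMF exosomes, without overlap with control in either comparison. CCT4 had a change of -0.07 in each, CCT7 had -0.13 and -0.20, and CCT6B, a form known from testis, stood at 2.00 CPM or less and had 0.47 and 0.09. With hOMF exosomes the 95% interval reached down to -0.23 for CCT4 and to -0.38 for CCT7, so a fall of the size of that in CCT5 lies within the interval of CCT7 and outside that of CCT4. With CAF exosomes the calls of CCT2, CCT5, TCP1 and CCT8 were each lost without CAF exosome replicate 3 or control replicate 3. CCT5, TCP1 and CCT8 also lost them without CAF exosome replicate 1 or control replicate 2, TCP1 and CCT8 without replicate 2 of either exosome group, and CCT8 without control replicate 1. Scaling without TMM factors ended the calls of TCP1, CCT8 and CCT3. Limma on FPKM ended those of TCP1, CCT8, CCT3 and, with CAF exosomes, CCT5. Without a filter on low counts TCP1 and CCT8 were not called. With hOMF exosomes, CCT3 and CCT6A lost their calls without hOMF exosome replicate 1 or 2, and CCT3 also without control replicate 2 or 3, while CCT2 and CCT5 kept theirs in every alternative. Without hOMF exosome replicate 3, TCP1, CCT7 and HSPD1 were called as well. The 9 genes together summed to 2175 ± 83.5 CPM in control, 1893 ± 50.6 with CAF exosomes and 1844 ± 165 with hOMF exosomes (SD, n = 3).

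**Figure D3:**
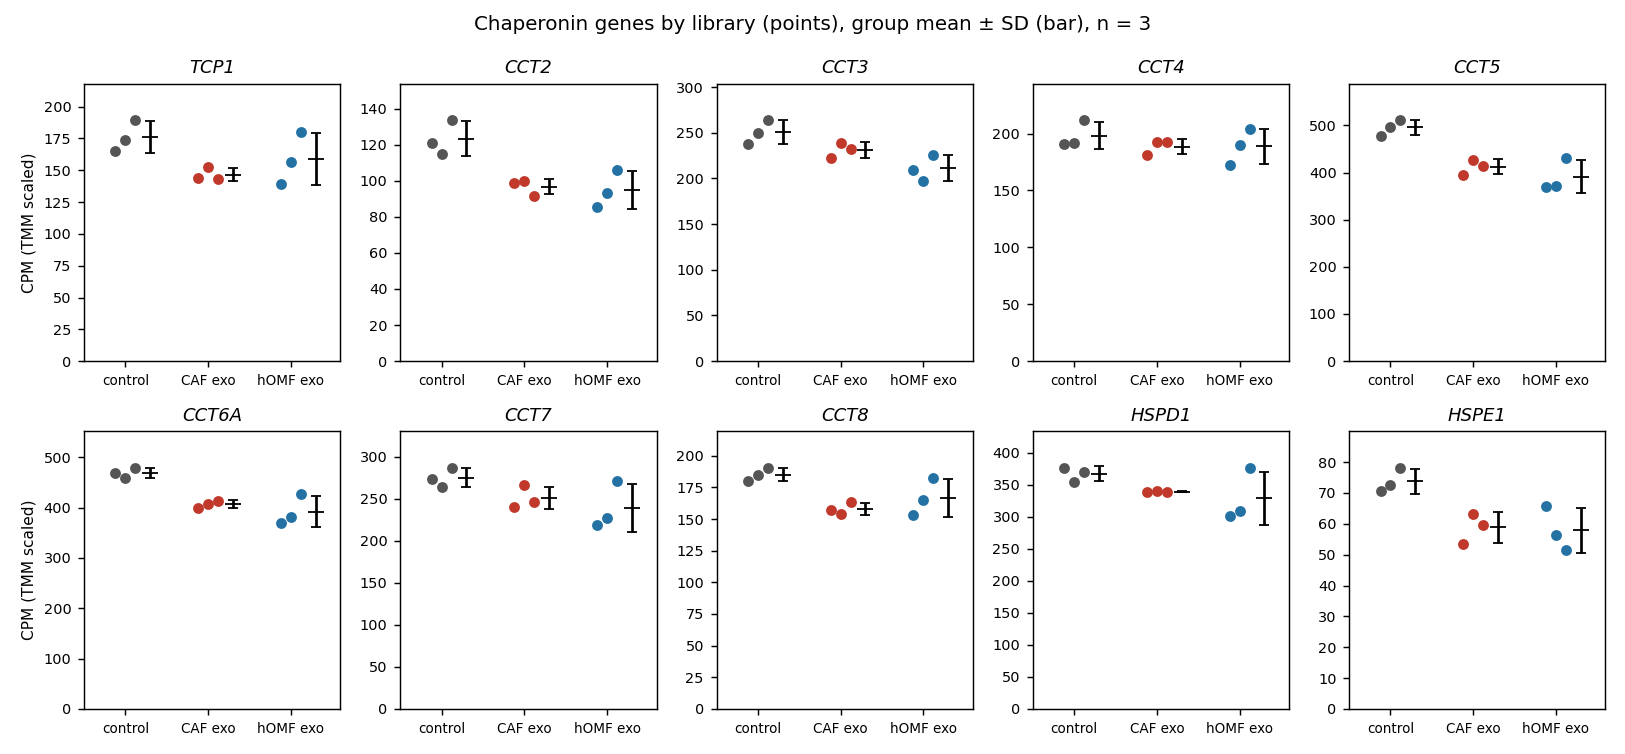
CPM of 8 subunits of CCT and of the mitochondrial chaperonin genes HSPD1 and HSPE1 in each library, with the group mean ± SD as a bar (n = 3, axes from 0). CCT2, CCT5, CCT6A and HSPE1 lie below control in all 6 exosome libraries, and hOMF exosome replicate 3 is the highest of its group for every CCT subunit shown.

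The mitochondrial chaperonin consists of HSP60 (HSPD1) and its lid HSP10 (HSPE1), whose genes lie head to head. HSPE1 read 70.5, 72.5 and 78.2 CPM in control, 53.4, 63.3 and 59.8 with CAF exosomes and 65.9, 56.2 and 51.4 with hOMF exosomes. It fell by 0.33 (SE 0.09, adjusted p = 0.024) and by 0.35 (SE 0.09, adjusted p = 0.0128), without overlap with control. HSPD1 read 376, 354 and 370.5 CPM in control, 339.5, 339.8 and 338 with CAF exosomes and 301, 308 and 377 with hOMF exosomes, with changes of -0.11 (95% interval -0.29 to 0.06) and -0.16 (-0.33 to 0.01) that were not called. HSPD1 was below control in all CAF exosome libraries, but its hOMF exosome replicate 3 was above all control libraries. In the first comparison the HSPE1 call was lost on omission of replicate 1 or 3 of CAF exosomes, or of replicate 2 or 3 of control. In the second it was lost on omission of replicate 2 or 3 of hOMF exosomes, or of replicate 3 of control. HSPE1 also overlaps the read-through gene HSPE1-MOB4 on the same strand.

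BAG proteins release nucleotide from HSP70 and tie it to other processes, BAG1 to the proteasome and BAG3 to autophagy. All 6 genes had a negative change in both comparisons, and 2 were called in each. Among all 12470 tested genes, 6329 with CAF exosomes and 6171 with hOMF exosomes had a negative change, and 8.64% and 11.4% were lower. With CAF exosomes BAG4 fell by 0.58 (SE 0.17, adjusted p = 0.0301), from 10.4, 6.59 and 9.97 CPM to 6.51, 6.21 and 5.34, and BAG1 fell by 0.31 (SE 0.10, adjusted p = 0.0496). BAG1 was called at the edge of the threshold and lost its call in 15 of the 20 alternatives, BAG4 in 6 of the 20, among them the omission of replicate 2 or 3 of CAF exosomes and of replicate 1 or 3 of control. For BAG1 these included the omission of every library except CAF exosome replicate 2 and hOMF exosome replicate 3. With hOMF exosomes BAG5, an exchange factor of HSP70, fell by 0.37 (SE 0.09, adjusted p = 0.00759), from 20.9, 22.3 and 20.9 CPM to 16.1, 16.4 and 17.0, a call kept in every alternative. Its CAF exosome libraries held 21.2, 20.0 and 19.6 CPM, overlapping control, with a change of -0.08 (95% interval -0.26 to 0.11). BAG2, which inhibits the ubiquitin ligase CHIP, fell by 0.39 with hOMF exosomes (SE 0.10, adjusted p = 0.0142). This call was lost without hOMF exosome replicate 1 or 2 or control replicate 3, and with limma on FPKM. BAG2 had a change of -0.26 with CAF exosomes (adjusted p = 0.0937). BAG3, an HSF1 target, had changes of -0.06 and -0.14, and BAG6, the member of this class with the highest FPKM (108), had -0.08 and -0.03. Neither was called. None of the BAG6 counts was whole, so its reads are shared with another gene.

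The sign of the changes went with the level of the members, as a description without a test. Of the 26 tested members with a mean FPKM of at least 50, 24 had a negative change with CAF exosomes and 9 were called lower. Of the 30 with a mean FPKM under 10, 10 had a negative change and 3 were called lower. The medians were -0.14 and 0.12. With hOMF exosomes 23 of the 26 high members had a negative change, with a median of -0.15, and 11 of the 30 low members, with a median of 0.09. Genes of the whole table leaned the same way, but less: the median was -0.04 for all tested genes at an FPKM of at least 50 and 0.03 for those under 10 with CAF exosomes, and -0.05 and 0.06 with hOMF exosomes. In the highest class, 57.3% of all genes had a negative change with CAF exosomes and 62.2% with hOMF exosomes. For all genes under 10 these shares were 46.2% and 42.6%. In the highest class, 12.3% of all genes were called lower with CAF exosomes and 17.2% with hOMF exosomes. Of all genes under 10, 5.87% were called lower with CAF exosomes. Called higher with hOMF exosomes were 12.8% of all genes under 10 and 8.40% of those in the highest class. With CAF exosomes these shares were 9.15% and 9.79%. Low genes have wider intervals, which can limit calls among them, but the part of interval width in the pattern was not tested. Both comparisons share their control libraries. The FPKM classes were chosen after the values were seen.

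**Figure D4:**
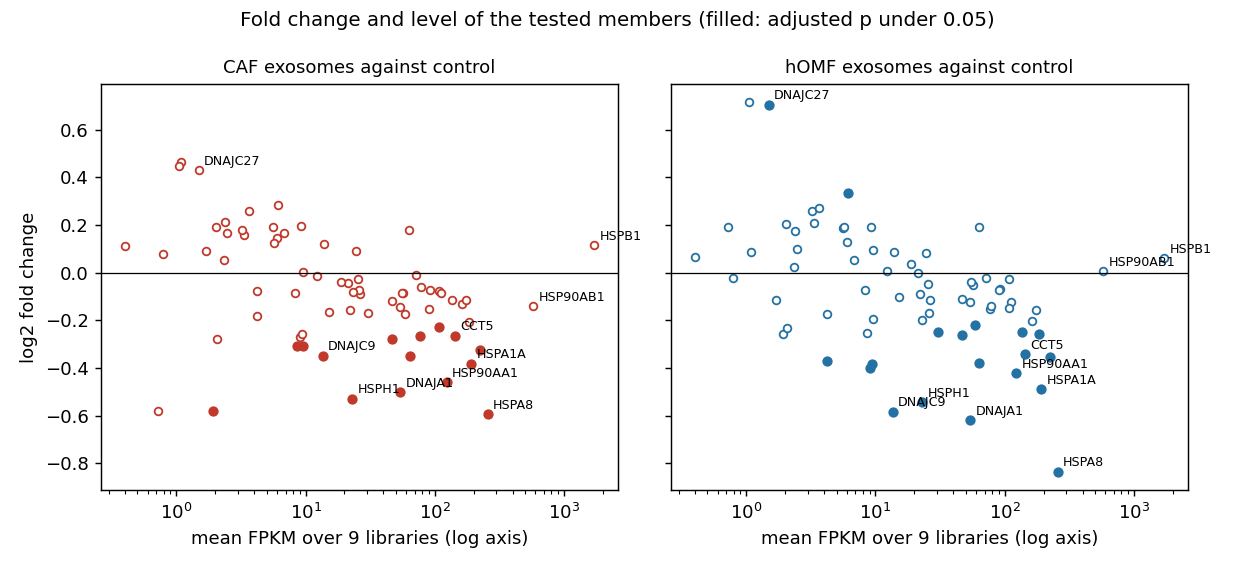
Log2 fold change against control of each tested member (y axis) by its mean FPKM over the 9 libraries (x axis, log scale), for CAF exosomes on the left and hOMF exosomes on the right, filled where the adjusted p was under 0.05. Members above an FPKM of 50 lie mostly below 0, with HSPB1 and HSP90AB1 at the right edge close to 0, and members under 10 lie mostly above it.

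Members that carried the heat shock element in their promoter were found on both sides of the calls. Among the 19 members with a promoter window that were lower in either comparison, 5 held GAANNTTC (26.3%): HSPA8, HSPA1A, DNAJA1, BAG2 and TCP1. Among the 46 tested members that were lower in neither, 5 held it (10.9%): HSPA1B, HSPA1L, HSPB1, HSPB8 and DNAJB6. The HSPA1L site is the same stretch of genome as the HSPA1A site, since these genes lie back to back on opposite strands, so 1 site is counted in both groups. HSPA6 and HSPB6 also held it and were not tested. The windows of HSPH1, HSP90AA1, CCT2 and CCT5 did not hold these letters, which says nothing about binding elsewhere.

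Genes that work with these chaperones but are not among the 78 were read from a separate list of 47, of which 46 were tested. With CAF exosomes 5 of them were lower (10.9%) and 1 higher (2.17%), against 8.64% and 9.51% of all genes. With hOMF exosomes 7 were lower (15.2%) and 0 higher, against 11.4% and 11.8%, so the shares of lower calls were near those of all genes. Co-chaperones of HSP70 and HSP90 gave 3 lower calls of 18 with CAF exosomes and 6 of 18 with hOMF exosomes. AHSA1, which stimulates the ATPase of HSP90, read 82.9, 93.6 and 96.6 CPM in control, 62.2, 76.7 and 71.2 with CAF exosomes and 65.2, 65.1 and 68.0 with hOMF exosomes. It fell by 0.38 (SE 0.08, adjusted p = 0.0065) and by 0.46 (SE 0.08, adjusted p = 0.00127). CHORDC1, another HSP90 co-chaperone, fell by 0.35 (SE 0.07, adjusted p = 0.00372) and by 0.39 (SE 0.07, adjusted p = 0.00111), and both genes kept their calls in every alternative.

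STIP1 (HOP), which links HSP70 to HSP90, fell by 0.24 (adjusted p = 0.0352) and 0.29 (adjusted p = 0.0104). FKBP4, a co-chaperone of steroid receptors, and NUDC fell with hOMF exosomes by 0.32 (adjusted p = 0.00885) and 0.33 (adjusted p = 0.0072), as did PPP5C by 0.31 (adjusted p = 0.0205). With CAF exosomes FKBP4, NUDC and PPP5C had changes of -0.21, -0.16 and -0.26 that were not called. TXNDC9, a cofactor of CCT, fell by 0.31 (adjusted p = 0.0233) and 0.26 (adjusted p = 0.0435), and was the one called gene of 10 prefoldin and CCT cofactor genes in each comparison. None of 7 mitochondrial partners, TRAP1 and LONP1 among them, was called. With CAF exosomes STIP1 lost its call in 10 of the 20 alternatives, among them the omission of replicate 1 or 3 of CAF exosomes, replicate 2 of hOMF exosomes and replicate 2 or 3 of control, and TXNDC9 on omission of replicate 1 or 3 of CAF exosomes or replicate 1 of control. With hOMF exosomes TXNDC9 lost its call in 12 of the 20, among them the omission of replicate 1 or 2 of hOMF exosomes and replicate 1 or 3 of control. STIP1 lost it without replicate 2 of hOMF exosomes or of control, and PPP5C without replicate 3 of hOMF exosomes or replicate 2 or 3 of control. Limma on FPKM ended the calls of PPP5C and FKBP4 with hOMF exosomes.

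SERPINH1 (HSP47), the collagen chaperone of the endoplasmic reticulum and an HSF1 target, went the other way. It read 316, 315 and 297 CPM in control, 413, 421 and 393 with CAF exosomes and 379, 328 and 312 with hOMF exosomes. SERPINH1 rose by 0.40 with CAF exosomes (SE 0.08, adjusted p = 0.00252) and had a change of 0.14 with hOMF exosomes (adjusted p = 0.213). Of the 10 tested other HSF genes and HSF1 targets on the list, 1 was called higher and 1 lower with CAF exosomes. Of all genes 9.51% were higher and 8.64% lower. With hOMF exosomes 0 of the 10 were called, against 11.8% and 11.4% of all genes. A negative change was found in 7 of the 10 with CAF exosomes and 6 with hOMF exosomes.

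CAF exosomes and hOMF exosomes were also compared directly, to ask whether the source of the exosomes mattered to chaperone RNA. None of the 72 tested members was called in edgeR, and 3 had an unadjusted p under 0.05, HSPA8, DNAJC9 and BAG5. Of all 12470 genes tested, 947 had an unadjusted p under 0.05. DESeq2 called 0 members. Over all genes 0.00802% were called higher and 0.00802% lower, which is 1 gene each. HSPA8 was higher with CAF than with hOMF exosomes by 0.24 (95% interval 0.06 to 0.43, adjusted p = 0.501), DNAJC9 by 0.24 (0.03 to 0.44, adjusted p = 0.576) and BAG5 by 0.30 (0.11 to 0.48, adjusted p = 0.384), and in all of these the 3 CAF exosome libraries lay above the 3 hOMF exosome libraries. For HSPH1 the interval was -0.19 to 0.22, for HSP90AA1 -0.21 to 0.13, for DNAJA1 -0.03 to 0.26 and for HSPA1A -0.06 to 0.27. Differences within these bounds are not excluded by the 3 libraries per group. Genes called against control with one kind of exosome and not with the other, such as BAG5, CCT3, CCT8 and DNAJC21, are therefore not shown to respond differently. The median log2 difference over the tested members was 0.01, against 0.00 over all genes. SERPINH1 was higher with CAF than with hOMF exosomes by 0.27 (95% interval 0.10 to 0.43, adjusted p = 0.367), and none of the 46 tested partner genes was called.

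**Figure D5:**
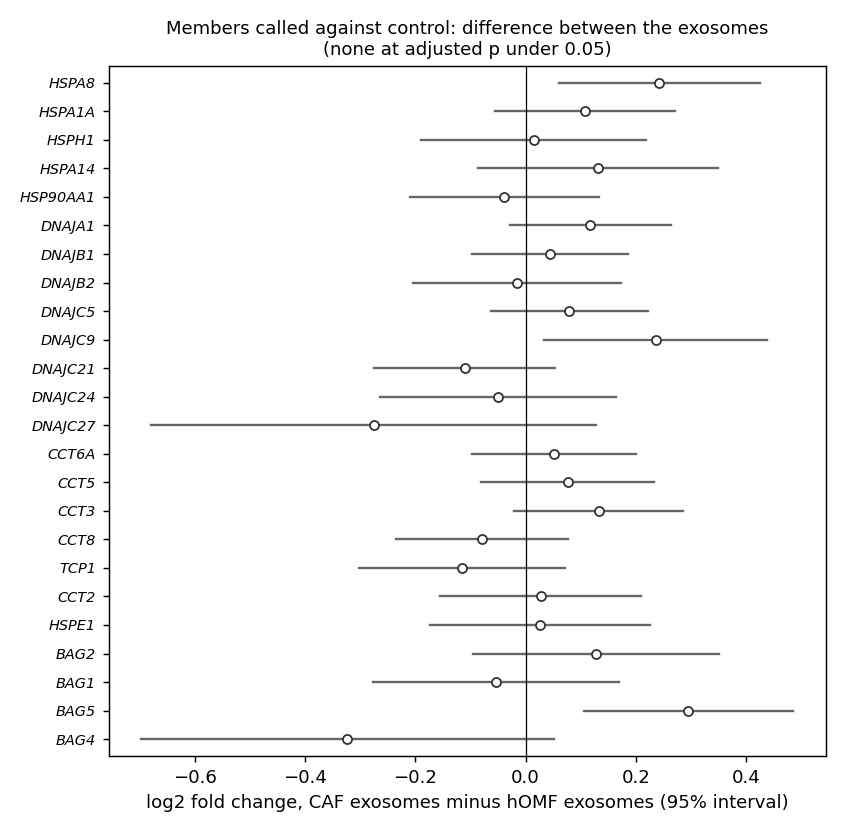
Log2 difference between CAF and hOMF exosomes, with its 95% interval, for the 24 members called against control in either comparison. The intervals of HSPA8, DNAJC9 and BAG5 lie to the right of 0 and the others include 0, and no gene had an adjusted p under 0.05.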

How the data were processed

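RNA was measured by poly(A) sequencing with dUTP strand marking in 9 libraries. The authors deposited 1 table of human gene symbols with expected counts, FPKM and TPM for each library. The expected counts were made by the authors with RSEM (1.2.8) and Bowtie2 (2.2.5), tools named in the submitters' processing notes, and divide reads between similar genes. FPKM values deposited by the authors are scaled by transcript length and depth and were used for levels between genes. TPM values deposited by the authors were not tested. The notes name a mouse build although the table is human, so no coordinate comes from the table. The labels and notes used here give neither annotation nor strand setting.

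Between 90.5% and 92.0% of the expected counts in a library were whole to within 0.001. They were rounded, filtered with filterByExpr (minimum count 10, minimum total 15), scaled by TMM and tested with edgeR's quasi-likelihood test (two-sided, group as the only term, all 9 libraries) with Benjamini-Hochberg adjustment over 12470 genes. No table column was left without a sample (0 columns). SE values come from the fold change and the F statistic, and intervals cover 95% and only the spread between libraries. The software was edgeR 4.0.16 in R 4.3.3, with DESeq2 1.42.0 and limma 3.58.1 for alternatives. The fit was tested on simulated data.

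The members, the partner list and the markers were chosen with earlier results of these data known. Named genes were up to 12 called members with the smallest p per direction and comparison, HSF1, per role the member with the highest FPKM and the called member with the largest change, and up to 4 called partners per direction. Other members were named after their values were seen, to describe each family whole. Promoter windows came from RefSeq (GRCh38.p14), matched by gene ID, and exon overlaps from GENCODE 29. Counts of replicate libraries were further apart than sampling noise allows (chi-square per degree of freedom 3.14 to 11.4). Alternatives were DESeq2, limma-voom, other scalings, filters and pseudocounts, limma on FPKM, fits of only the groups compared, a replicate block and the omission of each library. Protein sequences were not used here. One called partner gene is not reported here by name.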

Additional observations from a re-analysis of the deposited data

How the results depend on the processing

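No member call changed direction under any alternative. Of the calls against control, 5 of 15 with CAF exosomes and 10 of 19 with hOMF exosomes were kept in all 20 alternatives, counting the summed HSPA1A and HSPA1B added after the data were seen. Across the alternatives that kept all libraries, members called ranged from 11 to 16 with CAF exosomes and from 14 to 21 with hOMF exosomes. Leaving out 1 library at a time gave 5 to 16 and 11 to 20 members, 1343 to 2389 and 1695 to 3096 of all genes, and member medians of -0.129 to -0.065 and -0.104 to -0.0597. For hOMF exosomes, scaling by totals alone gave a member median of -0.0272, limma on FPKM gave -0.0285 at a pseudocount of 1 and -0.0304 at one of 0.1, and the medians of all genes were then 0.0557, 0.0468 and 0.056. Without TMM factors 63.1% of all calls with CAF exosomes and 67.0% with hOMF exosomes were higher, and members gave 2 higher and 12 lower, and 5 higher and 14 lower. Between the exosomes all genes called were 36 with DESeq2, and 0 with limma-voom, without TMM factors, with either limma fit on FPKM and with only the 2 groups in the fit. They were 0 to 8 with 1 library left out. Replicate numbers recur between groups. Deviations from the group means correlated at r between -0.154 and 0.140 for same-numbered libraries and between -0.143 and 0.181 for differently numbered ones. With 3 libraries per group these values cannot decide whether the samples were paired. With a replicate block, 14 and 19 members were called against control and 0 between exosomes. Depth limits the members under 10 FPKM.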
